A study of Mus musculus with 6 samples.

Results

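Integrin and laminin chains are the receptors and the sheet-forming matrix proteins by which cells of the aorta hold on to their surroundings. Their genes were taken as all probe sets of the array whose mouse gene symbol is that of an integrin alpha chain, an integrin beta chain or a laminin alpha, beta or gamma chain. This gave 73 of 45101 probe sets, standing for 34 of the 18193 genes that the array annotation names. Itga11 and Itgad had no probe set of their own and were not analysed here. A probe set was tested when the mean of its signal intensity, the brightness of the probe set on a linear scale, reached 100 in at least 1 group. This held for 35 of the 73 probe sets, which stand for 26 genes. The 8 genes that were measured but not tested are Itgam, Itga2, Itga10, Itgb6, Lama1, Lama3, Lamb3 and Lamc3. Just inside this limit were Itgb3, with a highest group mean of 108, and a second probe set of Itga4, with 109. Just outside it were Lamb3, with 82.4, and a further probe set of Itgb1, with 90.1.

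The arrays measured whole aortas of 3 groups of mice at 32 to 34 weeks of age. The VitE group were ApoE-deficient mice that received vitamin E, an antioxidant, at 2000 IU per kg of diet for 7 months. The ApoE-/- group were ApoE-deficient mice without treatment, which develop atherosclerosis, and the B6 group were nontransgenic C57BL/6J mice. ApoE-deficient mice were on the B6 background and lack Apoe in every tissue. All groups received chow with 7% fat and 0.15% cholesterol. No tocopherol acetate, the form of vitamin E used, was added to it except in the VitE group. Each group has 2 arrays with RNA of 3 pooled aortas on each, so that the spread between single mice is not seen.

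Apoe had a signal intensity of 40.5 and 45.3 in VitE and of 93.2 and 57.4 in ApoE-/- aortas, against 5209 and 5432 in B6 aortas, in keeping with the genotype labels. Smooth muscle markers of the aorta were present on all 6 arrays, for example Acta2 at 8791 and 9530 in VitE, 9158 and 9773 in ApoE-/- and 10846 and 11061 in B6 aortas. The B6 arrays stood apart in control probe sets for dap, a bacterial transcript used to follow labelling, with 1192 and 1203 in VitE, 978 and 918 in ApoE-/- and 3203 and 3179 in B6 aortas. The ratio of 3' to 5' signal of Gapdh control probe sets, a sign of RNA quality, was 1.15 and 1.24 in VitE, 1.03 and 1.06 in ApoE-/- and 1.35 and 1.34 in B6 aortas. These differences and the genotype cannot be told apart. The titles of the VitE arrays are written in another style than those of the ApoE-/- and B6 arrays. Their sample numbers also lie in another range, while those of the ApoE-/- and B6 arrays lie close together. Whether the VitE arrays were run separately is not stated. Such a difference and vitamin E could not be told apart in either comparison of VitE aortas. Markers of skeletal muscle, heart muscle, oesophageal epithelium, lung and thymus were also found and differed between the groups, so their values are given beside the chains that such tissues also use.

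An integrin is a pair of an alpha and a beta chain that spans the membrane and ties matrix or another cell to the cytoskeleton. Leukocytes carry their own pairs, in which Itgb2 joins Itgal, Itgam or Itgax to bind ICAM proteins, and Itga4 joins Itgb1 or Itgb7 to bind VCAM-1 or MAdCAM-1 on endothelium. Itgae pairs with Itgb7 and holds T cells on epithelial E-cadherin. Cells of the vessel wall use other pairs for collagen, fibronectin, vitronectin and laminin, and epithelium rests on laminin through Itga6 with Itgb4 and Itga3 with Itgb1. Laminins are trimers of an alpha, a beta and a gamma chain and form the basement membrane around smooth muscle cells and beneath endothelium. In whole aortas, fewer cells of a type and less RNA per cell cannot be told apart.

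Of the 35 probe sets tested, 16 (45.7%) were called in ApoE-/- against B6 aortas, 11 higher and 5 lower, beside 40.8% of all 17909 probe sets. A call is an adjusted p under 0.05 from limma. In VitE against ApoE-/- aortas 7 (20.0%) were called, 1 higher and 6 lower, beside 15.5% of all probe sets. In VitE against B6 aortas 16 (45.7%) were called, 7 higher and 9 lower, beside 41.1%. The share of calls among the chains was thus near the background, and what follows is about which chains they were. Counted with 1 probe set per gene, 10 of the 26 genes were higher and 4 lower in ApoE-/- than in B6 aortas, where 21.2% of all 10646 genes tested were higher and 20.8% lower. VitE against ApoE-/- aortas gave 0 higher and 4 lower, where 8.18% of all genes were higher and 7.65% lower. VitE against B6 aortas gave 7 higher and 6 lower, where 21.1% were higher and 21.7% lower. The groups did not overlap in 19, 15 and 20 of the 26 genes in these 3 comparisons, where they did not overlap in 77.0%, 59.6% and 73.0% of all genes tested, so that these counts too were near the background.

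**Figure D1:**
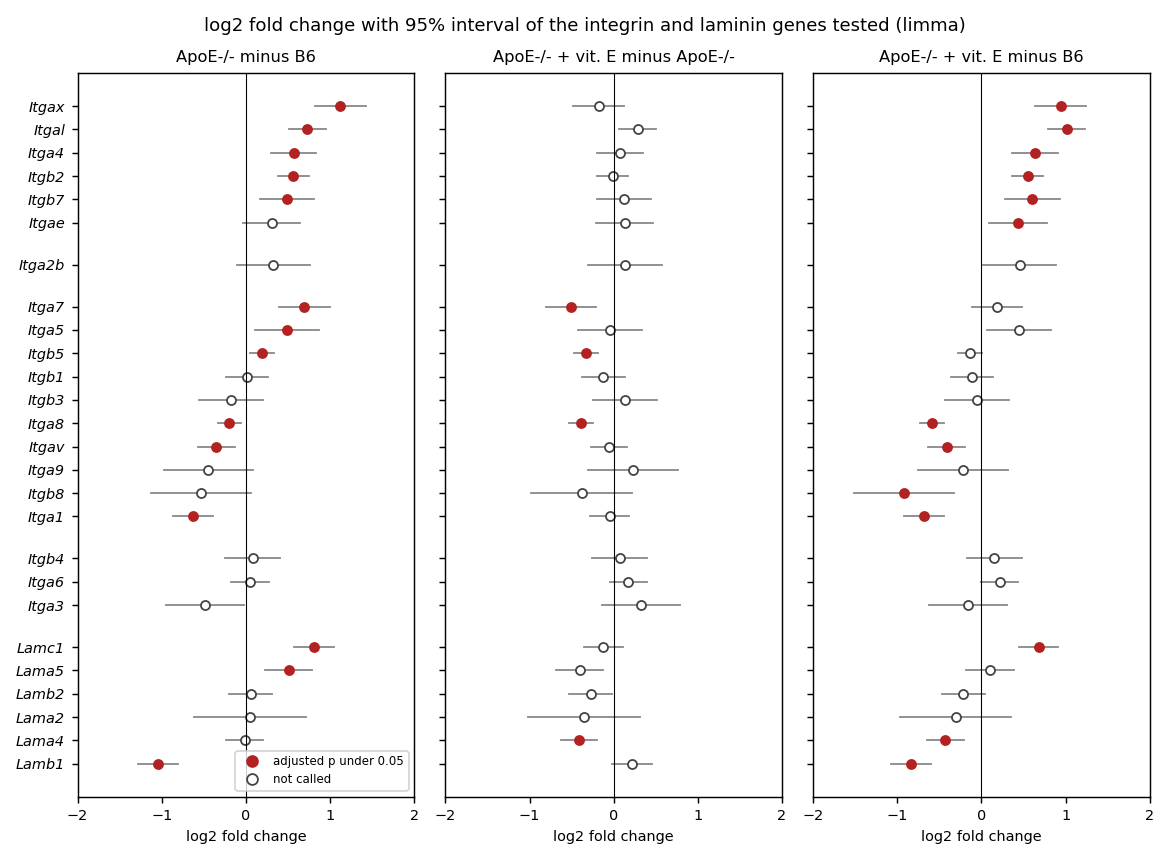
Each point is the log2 fold change of 1 gene (main probe set) with its 95% interval from limma, for the 3 comparisons side by side, and filled points are calls at an adjusted p under 0.05 (VitE is written as ApoE-/- + vit. E in the plots). Genes run down the page as leukocyte, platelet, wall and muscle, and epithelial integrin chains and laminin chains. The leukocyte chains lie right of 0 against B6 in both ApoE-deficient groups, while wall chains and laminins lie on both sides.

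Leukocyte integrins were higher in both ApoE-deficient groups than in B6 aortas. Of the 6 tested, 5 rose in ApoE-/- aortas and all 6 in VitE aortas, and 0 fell in either. In VitE against B6 aortas 4 to 5 of the 6 were called when any 1 of the 6 arrays was left out, and 5 with replicate number as a block. The median log2 fold change of the 6 was 0.56 and 0.62, beside 0.016 and -0.0016 over all genes tested. Between VitE and ApoE-/- aortas 0 of the 6 were called, with a median of 0.10 beside -5.6e-05 over all genes. There, limma gave 1 of the 6 at an unadjusted p under 0.05, which was Itgal. The methods' t-test gave 0, but it asks for at least a 2-fold difference. The largest of the 6 was 1.22-fold, in Itgal, so that this test could call none of them.

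Itgax, the alpha chain known as CD11c and used as a marker of dendritic cells and of some macrophages, had a signal intensity of 244 and 228 in VitE aortas, 253 and 281 in ApoE-/- aortas, and 113 and 133 in B6 aortas. All 4 ApoE-deficient arrays were far above both B6 arrays, and the VitE arrays were slightly below the ApoE-/- arrays. The signal intensity was 2.17-fold higher in ApoE-/- than in B6 (log2 fold change 1.12, SE 0.13, adjusted p = 0.00055 from limma) and 1.92-fold higher in VitE than in B6 (log2 fold change 0.94, adjusted p = 0.0013). VitE and ApoE-/- aortas differed by -0.18 on the log2 scale (95% interval -0.48 to 0.12, adjusted p = 0.38).

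Itgal, the alpha chain of LFA-1 on lymphocytes, had 643 and 759 in VitE aortas, 589 and 559 in ApoE-/- aortas, and 349.9 and 342 in B6 aortas. The 3 groups did not overlap, and the order was VitE over ApoE-/- over B6. Itgal was 1.66-fold higher in ApoE-/- than in B6 (log2 fold change 0.73, SE 0.09, adjusted p = 0.00095) and 2.02-fold higher in VitE than in B6 (log2 fold change 1.01, adjusted p = 0.00024). The further step between VitE and ApoE-/- aortas was 0.28 on the log2 scale and was not called (adjusted p = 0.086). Itgb2, the beta chain that pairs with Itgal and Itgax, ranged from 1158 to 1274.5 in VitE, from 1222 to 1228 in ApoE-/- and from 789 to 874 in B6 aortas. Itgb2 was 1.48-fold higher in ApoE-/- than in B6 aortas (adjusted p = 0.0013) and 1.46-fold higher in VitE than in B6 aortas (adjusted p = 0.0015), and the ApoE-deficient groups overlapped.

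Itga4, the alpha chain with which lymphocytes and monocytes bind VCAM-1, had 488 and 485 in VitE aortas, 417 and 515 in ApoE-/- aortas, and 296 and 331 in B6 aortas. The ApoE-deficient groups overlapped and both lay above B6. Itga4 was 1.48-fold higher in ApoE-/- than in B6 (log2 fold change 0.57, SE 0.12, adjusted p = 0.0071) and 1.56-fold higher in VitE than in B6 (log2 fold change 0.64, adjusted p = 0.0044). A second, dimmer probe set of Itga4 did not follow, with 109 and 108 in VitE, 59.5 and 66.6 in ApoE-/- and 81.4 and 97.0 in B6 aortas. There the ApoE-/- arrays were the lowest, and the log2 fold change was -0.50 in ApoE-/- against B6 (adjusted p = 0.052) and 0.79 in VitE against ApoE-/- aortas (adjusted p = 0.023). In VitE against B6 aortas it was not called (log2 fold change 0.29, adjusted p = 0.21). It was the only probe set of the family called higher in VitE than in ApoE-/- aortas. However, it reached the intensity limit for testing in VitE aortas alone, which favours such a call, and it was chosen for naming after its values had been seen. The call of the main probe set in ApoE-/- against B6 aortas was lost without the first B6 array (adjusted p = 0.061).

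Itgb7, the partner of Itga4 and Itgae on mucosal lymphocytes, had 263 and 240.3 in VitE aortas, 239 and 224 in ApoE-/- aortas, and 185 and 147 in B6 aortas. All 4 ApoE-deficient arrays were above both B6 arrays. It was 1.4-fold higher in ApoE-/- than in B6 (log2 fold change 0.49, SE 0.14, adjusted p = 0.026), a call that was lost under median centring (adjusted p = 0.054), and 1.52-fold higher in VitE than in B6 (log2 fold change 0.61, adjusted p = 0.011). Without the second B6 array neither was called (adjusted p = 0.15 and 0.072), and the first was also lost without the first (adjusted p = 0.13) or the second ApoE-/- array (adjusted p = 0.078). Itgae, the CD103 chain of tissue-resident T cells, ranged from 148 to 149 in VitE, from 131 to 141 in ApoE-/- and from 100.3 to 120.5 in B6 aortas. Its level was called in VitE against B6 aortas alone (log2 fold change 0.44, adjusted p = 0.047), a call that was lost without any 1 of the 6 arrays (adjusted p from 0.054 to 0.22), and in ApoE-/- against B6 aortas its log2 fold change was 0.31 (adjusted p = 0.13). Itgam, the alpha chain of Mac-1 on neutrophils and monocytes, was dim on all arrays, between 21.1 and 23.3 in VitE, 25.7 and 43.2 in ApoE-/- and 27.9 and 32.2 in B6 aortas, and was not tested.

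**Figure D2:**
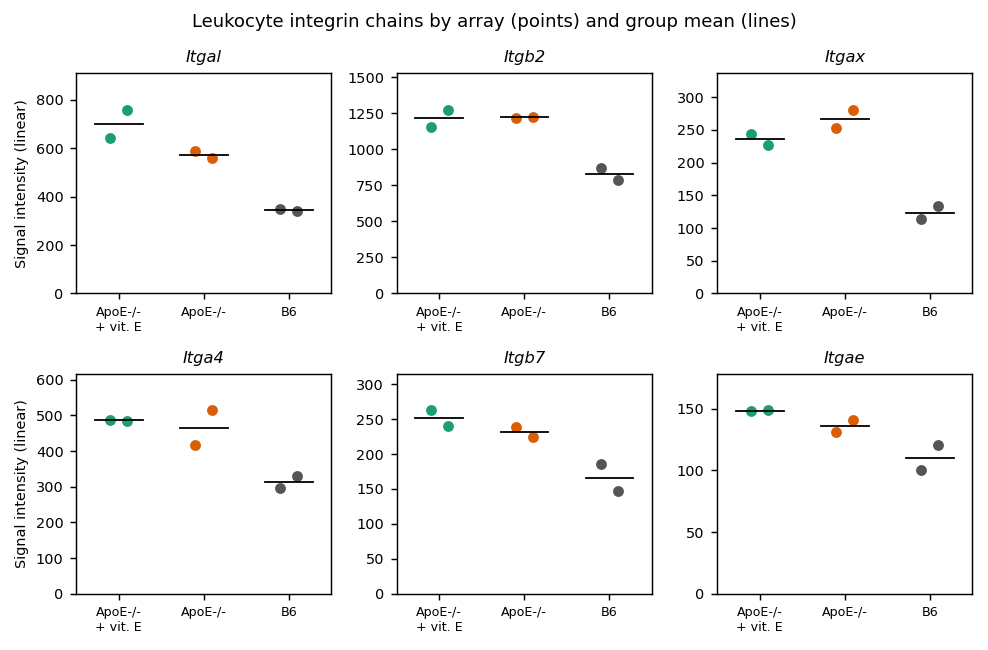
Signal intensity (linear axis from 0) of the leukocyte integrin genes on each of the 6 arrays, with a point per array and a line at each group mean. For Itgal, Itgax, Itgb2, Itga4 and Itgb7, all 4 ApoE-deficient arrays lie above both B6 arrays.

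The promoters of 3 of the chains that were higher in both ApoE-deficient groups are shown so that the start regions of leukocyte integrin genes can be compared. They are the 250 bases before the transcription start from RefSeq (GRCm38.p6), read in the direction of the gene. Of the 34 genes, 22 were matched to 25 promoters in the table used. The motifs searched on both strands were GAGGAA, a core of sites of the myeloid factor PU.1, and TGTGGT, the core of RUNX sites, which do not overlap as letters. Capitals mark a match.
Itga4 (chr2:79255176-79255425, plus strand): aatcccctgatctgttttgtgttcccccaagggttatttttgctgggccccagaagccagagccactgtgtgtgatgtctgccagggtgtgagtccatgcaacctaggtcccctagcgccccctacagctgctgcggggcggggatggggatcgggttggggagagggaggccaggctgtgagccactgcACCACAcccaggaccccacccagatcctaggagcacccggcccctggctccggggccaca
Itgax (chr7:128129300-128129549, plus strand): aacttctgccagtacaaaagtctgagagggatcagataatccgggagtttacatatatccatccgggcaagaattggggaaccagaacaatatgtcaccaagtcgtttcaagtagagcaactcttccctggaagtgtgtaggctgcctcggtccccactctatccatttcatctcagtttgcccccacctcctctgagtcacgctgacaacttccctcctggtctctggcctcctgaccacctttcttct
Itgb7 (chr15:102231936-102232185, minus strand): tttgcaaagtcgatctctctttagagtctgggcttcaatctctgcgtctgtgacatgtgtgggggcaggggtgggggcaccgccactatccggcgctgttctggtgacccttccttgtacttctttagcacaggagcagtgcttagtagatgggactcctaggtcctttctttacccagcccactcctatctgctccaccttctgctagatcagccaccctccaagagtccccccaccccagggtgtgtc
The Itga4 promoter held 1 RUNX match, on the minus strand and 60 bases before the start, and no PU.1 match. The other promoters shown held neither. Over all 32851 promoters of this length 23.3% held the PU.1 letters and 14.0% the RUNX letters. Among the 25 promoters of the family 12 held the PU.1 letters, among them all 4 promoters of wall laminin chains, and 2 held the RUNX letters. Of the 4 promoters of leukocyte integrin chains 1 held the PU.1 letters, that of Itgam, and 1 the RUNX letters, that of Itga4. Itgal, Itgb2 and Itgae were among the genes not matched to a promoter.

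Most tested markers of T cells, immature thymocytes, B cells and macrophages were higher in both ApoE-deficient groups than in B6 aortas, as were these chains. Between VitE and ApoE-/- aortas some markers were called, while 0 of the 6 leukocyte chains were. Of 13 T cell markers tested, 9 were higher in ApoE-/- than in B6 aortas, 6 higher in VitE than in ApoE-/- aortas and 12 higher in VitE than in B6 aortas, with 0 lower in each. Their summed signal intensity was 9953 to 10022 in VitE, 6662 to 6771 in ApoE-/- and 3368 to 3502 in B6 aortas. Of 6 markers of immature thymocytes, 5 were higher and 1 was lower in ApoE-/- and in VitE than in B6 aortas, and 1 was higher in VitE than in ApoE-/- aortas. Their sum was 7109 to 7512 in VitE, 4431 to 5301 in ApoE-/- and 2328 to 2386 in B6 aortas. The marker that was lower, Cd1d1, which cells other than thymocytes also express, had 2182 and 2184 in B6 aortas, and without it, a choice made after its values had been seen, the sum was 5949 to 6161 in VitE, 3002 to 3951 in ApoE-/- and 143 to 205 in B6 aortas. Rag1, the recombinase of developing lymphocytes, had 2940 and 3020 in VitE and 1887 and 2060 in ApoE-/- aortas, against values under 20 on both B6 arrays.

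Of 5 B cell markers, 5 were higher in VitE and 5 in ApoE-/- than in B6 aortas, and 0 were called between VitE and ApoE-/- aortas. Of 11 macrophage markers, 8 were higher and 0 lower in ApoE-/- than in B6 aortas, 0 were higher and 2 lower in VitE than in ApoE-/- aortas, and 7 were higher and 1 was lower in VitE than in B6 aortas. The macrophage sum was 16194 to 16574 in VitE, 18387 to 18429 in ApoE-/- and 11831 to 11846 in B6 aortas. No list marker of these 4 cell types was under 20 on every array. The order of the groups thus differed between lists, with VitE aortas highest for T cell and thymocyte markers and ApoE-/- aortas highest for macrophage markers. Relative to the B6 mean, Itgal stood at 1.86 and 2.19 in VitE and 1.70 and 1.62 in ApoE-/- aortas, and Itgax at 1.98 and 1.85 in VitE and 2.06 and 2.28 in ApoE-/- aortas. Of neutrophil markers 2 of 5 measured were tested, S100a8 and S100a9, and of dendritic cell markers 0 of 4 measured. S100a9, a calcium-binding protein of neutrophils and monocytes, was higher in VitE than in ApoE-/- (log2 fold change 0.72, adjusted p = 0.025) and than in B6 aortas (log2 fold change 0.47, adjusted p = 0.048), and S100a8 was not called. The part of each cell type, and of thymus lying by the aorta, in the level of a chain was not tested.

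**Figure D3:**
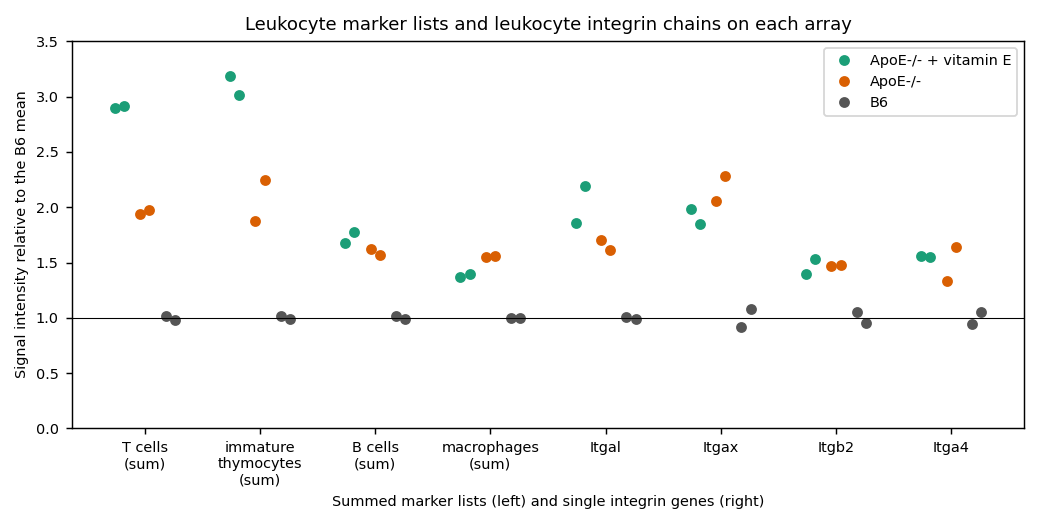
Summed signal intensity of 4 leukocyte marker lists and signal intensity of 4 integrin genes on each array, divided by the mean of the B6 arrays (linear axis, a point per array, line at the B6 mean). T cell sums lie at 2.90 and 2.92 in VitE and 1.94 and 1.97 in ApoE-/- aortas, and macrophage sums at 1.37 and 1.4 in VitE and 1.55 and 1.56 in ApoE-/- aortas.

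Cell surface ligands of leukocyte integrins, most of them on vessel cells but with Cdh1, the gene of epithelial E-cadherin, among them, were measured as a list of 9, of which 7 were tested. In ApoE-/- and in VitE against B6 aortas 2 were higher and 1 was lower, and 0 were called between VitE and ApoE-/- aortas. Vcam1, which binds Itga4 pairs, had 996 and 642 in VitE, 745 and 849 in ApoE-/- and 407 and 463 in B6 aortas, with log2 fold changes of 0.87 in ApoE-/- (adjusted p = 0.0089) and 0.88 in VitE (adjusted p = 0.0087) against B6. Icam2, an endothelial ligand of LFA-1, rose by 0.58 in ApoE-/- and by 0.54 in VitE aortas. Jam2, an endothelial junction protein that binds Itga4 with Itgb1, fell by 0.42 in ApoE-/- and by 0.70 in VitE aortas.

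Integrin chains of the vessel wall changed in both directions. Of 10 tested, 3 were higher (Itga7, Itga5 and Itgb5) and 3 lower (Itga1, Itgav and Itga8) in ApoE-/- than in B6 aortas. In VitE against ApoE-/- aortas 3 were lower (Itga7, Itga8 and Itgb5), and in VitE against B6 aortas 4 were lower (Itgb8, Itga1, Itga8 and Itgav), with 0 higher in both. With the 3 epithelial chains, none of which was called, the median log2 fold change of 13 genes was -0.18, -0.05 and -0.14. The even split against B6 depended on scaling, since median centring gave 1 higher and 4 lower of the 13. Fewer of the 13 were called in ApoE-/- against B6 aortas without either ApoE-/- array or the second B6 array. The same held in VitE against ApoE-/- aortas without either ApoE-/- array, and in VitE against B6 aortas without the second B6 array. The share called over all probe sets tested also fell in each of these fits. Some calls of the 13 genes were also lost in other fits that left out 1 array, as given for each gene below.

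Itga1, whose pair with Itgb1 is a collagen receptor of smooth muscle cells, had 222 and 208 in VitE aortas, 212 and 233 in ApoE-/- aortas, and 343 and 347 in B6 aortas. The ApoE-deficient groups overlapped and both lay well below B6. It was 1.55-fold lower in ApoE-/- (log2 fold change -0.63, SE 0.10, adjusted p = 0.0025) and 1.61-fold lower in VitE than in B6 (log2 fold change -0.68, adjusted p = 0.0018). A second probe set of Itga1 gave -1.42 and -1.06 for the same comparisons, but it was tested only because it reached the intensity limit in B6 aortas, where it was high. In VitE against ApoE-/- aortas it gave 0.35 (adjusted p = 0.28), where the main probe set gave -0.05 (adjusted p = 0.78). Itgav, which pairs with several beta chains to bind vitronectin and fibronectin, ranged from 1126 to 1256 in VitE, from 1224 to 1252 in ApoE-/- and from 1458 to 1717 in B6 aortas. Its level was lower by 0.35 in ApoE-/- (adjusted p = 0.020) and by 0.41 in VitE than in B6 aortas (adjusted p = 0.011) on the log2 scale. Without the second B6 array neither was called (adjusted p = 0.13 and 0.077), and the first was also lost without the first (adjusted p = 0.077) or the second ApoE-/- array (adjusted p = 0.10).

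Itga8, whose pair with Itgb1 is typical of contractile smooth muscle cells and binds nephronectin, had 1418 and 1354 in VitE aortas, 1792 and 1835 in ApoE-/- aortas, and 2056 and 2102 in B6 aortas. The 3 groups did not overlap, with VitE aortas lowest and B6 highest. The log2 fold change was -0.20 in ApoE-/- against B6 (SE 0.06, adjusted p = 0.034), -0.39 in VitE against ApoE-/- (adjusted p = 0.0067) and -0.59 in VitE against B6 aortas (1.5-fold lower, adjusted p = 0.00036). The first of these was not called after quantile normalization (log2 fold change -0.13, adjusted p = 0.11), nor without any 1 of the ApoE-/- and B6 arrays (adjusted p from 0.12 to 0.18). The difference between VitE and ApoE-/- aortas was not called without the first (adjusted p = 0.055) or the second ApoE-/- array (adjusted p = 0.073). A second probe set gave -0.26, -0.57 and -0.83 for the 3 comparisons, of which the first was not called (adjusted p = 0.15). Npnt, the gene of nephronectin, was lower by 0.45 in ApoE-/- and by 0.63 in VitE than in B6 aortas, and was chosen as the ligand of Itga8 after its values had been seen.

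Itgb8, which with Itgav binds latent TGF-beta, had 124 and 75.0 in VitE aortas, 119.7 and 132 in ApoE-/- aortas, and 155 and 213 in B6 aortas. The replicates of VitE and of B6 aortas lay far apart. It was 1.89-fold lower in VitE than in B6 (log2 fold change -0.92, SE 0.26, adjusted p = 0.025), a call that was lost without the second B6 array (adjusted p = 0.16) or the second VitE array (adjusted p = 0.082). In ApoE-/- against B6 aortas the log2 fold change was -0.54 (adjusted p = 0.13).

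Itga7, the laminin-binding chain of skeletal, heart and smooth muscle, had 198 and 225 in VitE aortas, 316 and 285 in ApoE-/- aortas, and 172 and 200.4 in B6 aortas. The ApoE-/- arrays were the highest, and the other groups overlapped. It was 1.62-fold higher in ApoE-/- than in B6 (log2 fold change 0.69, SE 0.13, adjusted p = 0.0048) and 1.42-fold lower in VitE than in ApoE-/- aortas (log2 fold change -0.51, adjusted p = 0.039). The second call was lost in a fit of these 2 groups alone (adjusted p = 0.061) and without any 1 array other than the second VitE array (adjusted p from 0.061 to 0.20). Heart muscle markers were likewise highest in ApoE-/- aortas, with sums of 28304 to 31478 in VitE, 52668 to 53149 in ApoE-/- and 27473 to 27878 in B6 aortas, and all 9 were higher in ApoE-/- than in B6 and lower in VitE than in ApoE-/- aortas. Skeletal muscle markers were lowest in ApoE-/- aortas, with sums of 58747 to 68192 in VitE, 30303 to 30388 in ApoE-/- and 54024 to 54696 in B6 aortas, and all 11 were lower in ApoE-/- than in B6 and higher in VitE than in ApoE-/- aortas. The part of either muscle in the level of Itga7 was not tested.

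**Figure D4:**
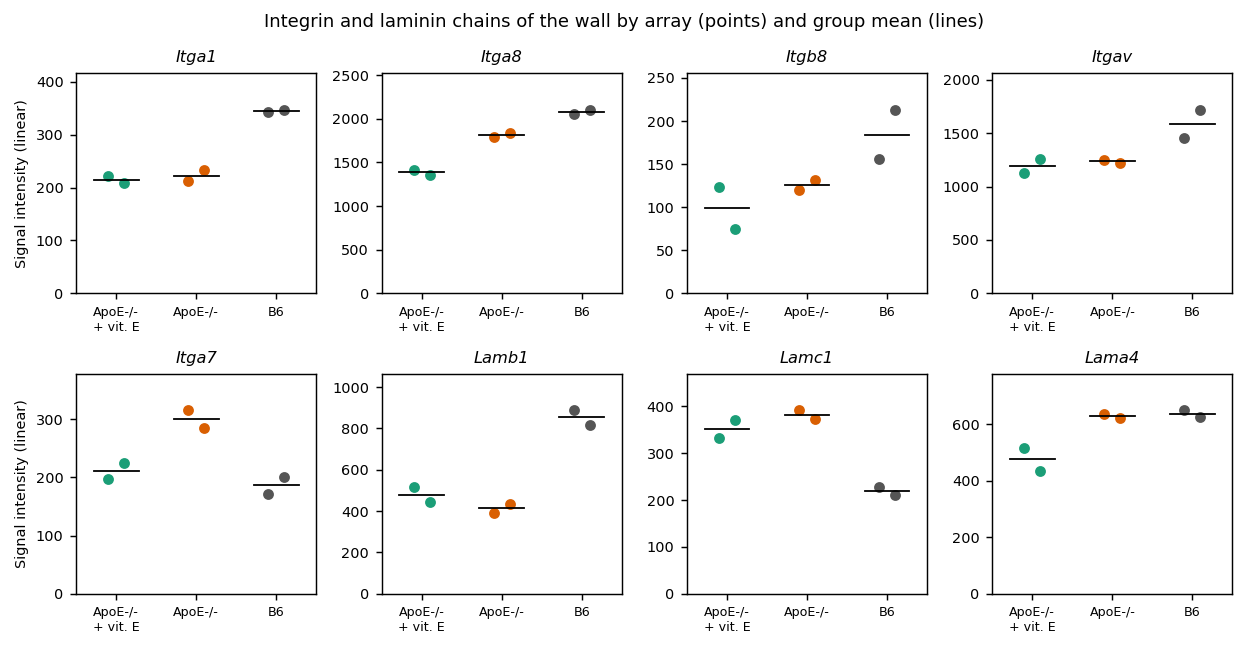
Signal intensity (linear axes from 0) of 5 integrin and 3 laminin genes of the vessel wall on each of the 6 arrays, with a point per array and a line at each group mean. Itga1 and Lamb1 are low and Lamc1 is high in both ApoE-deficient groups, Itga8 and Lama4 are lowest in VitE aortas, and Itga7 is highest in ApoE-/- aortas.

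Itga5, the fibronectin receptor chain, was 1.4-fold higher in ApoE-/- than in B6 aortas (adjusted p = 0.0455) with 118 to 119 in VitE, 109.8 to 136 in ApoE-/- and 82.9 to 91.2 in B6 aortas. Itgb5, a vitronectin receptor chain, ranged from 969 to 985 in VitE, from 1219 to 1240.0 in ApoE-/- and from 1046 to 1106 in B6 aortas, and was 1.14-fold higher in ApoE-/- than in B6 aortas (adjusted p = 0.041) and 1.26-fold lower in VitE than in ApoE-/- aortas (adjusted p = 0.014). Neither difference was called by any of the 3 other tested probe sets of Itgb5 (adjusted p from 0.068 to 0.41 and from 0.054 to 0.11), and 1 of these 3 had the opposite direction in ApoE-/- against B6 aortas, with a log2 fold change of -0.22 (95% interval -0.41 to -0.03). This probe set gave -0.50 in VitE against B6 aortas (adjusted p = 0.0027), where the main probe set gave -0.14 (adjusted p = 0.11). The calls of Itga5 and Itgb5 in ApoE-/- against B6 aortas were lost without any 1 of the ApoE-/- and B6 arrays (adjusted p from 0.054 to 0.25 for Itga5 and from 0.087 to 0.21 for Itgb5), and that of Itgb5 in VitE against ApoE-/- aortas without the first (adjusted p = 0.084) or the second ApoE-/- array (adjusted p = 0.11). Itgb1, the beta chain of most wall pairs, was not called in any comparison by its main probe set, which had a log2 fold change of 0.01 in ApoE-/- against B6 aortas (95% interval -0.24 to 0.27). Another probe set of Itgb1 was higher by 0.45 in ApoE-/- than in B6 aortas (adjusted p = 0.0050) and lower by 0.31 in VitE than in ApoE-/- aortas (adjusted p = 0.046), and gave 0.14 in VitE against B6 aortas (adjusted p = 0.23), where the main probe set gave -0.11. Itga9 and Itgb3 were not called in any comparison, with log2 fold changes between -0.45 and 0.23 for Itga9 and between -0.18 and 0.13 for Itgb3, and Itga10 was dim, between 20.4 and 83.6 on all arrays.

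Contractile smooth muscle markers gave 1 higher and 0 lower of 10 in ApoE-/- against B6, 0 higher and 4 lower in VitE against ApoE-/- and 1 higher and 4 lower in VitE against B6 aortas. Their sum was 19705 to 20522 in VitE, 21618 to 22137 in ApoE-/- and 22316 to 23059 in B6 aortas. Among endothelial markers 3 of 10 were higher and 1 lower in ApoE-/- against B6, 2 lower in VitE against ApoE-/-, and 2 higher and 3 lower in VitE against B6 aortas. Among adventitial fibroblast markers 3 of 7 were higher and 1 lower, 1 lower, and 1 higher and 3 lower in the same comparisons. Their part in the levels of the wall chains was not tested.

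The platelet chain Itga2b, which with Itgb3 forms the fibrinogen receptor, ranged from 179 to 239 in VitE, from 164 to 217 in ApoE-/- and from 147 to 155 in B6 aortas. Its level was not called, and its log2 fold changes against B6 were 0.32 in ApoE-/- (95% interval -0.11 to 0.76, adjusted p = 0.20) and 0.46 in VitE (95% interval 0.02 to 0.89, adjusted p = 0.088). Of 6 platelet markers measured 2 were tested, and Pf4, a chemokine of platelet granules, was higher by 0.45 in ApoE-/- than in B6 and lower by 0.46 in VitE than in ApoE-/- aortas.

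Integrin chains of epithelium were not called in any of the 3 comparisons. Itga6, a laminin receptor chain, had log2 fold changes of 0.05, 0.17 and 0.22, with 95% intervals of -0.17 to 0.27, -0.05 to 0.39 and -0.00050 to 0.44, in ApoE-/- against B6, in VitE against ApoE-/- and in VitE against B6 aortas. A second probe set of Itga6 had 628 and 603 in VitE, 709 and 659.7 in ApoE-/- and 688 and 634 in B6 aortas, and it went the other way in both comparisons of VitE aortas, with log2 fold changes of -0.15 against ApoE-/- (adjusted p = 0.22) and -0.10 against B6 (adjusted p = 0.32). Itgb4, its partner in hemidesmosomes, had log2 fold changes of 0.08 in ApoE-/- against B6, 0.07 in VitE against ApoE-/- and 0.15 in VitE against B6 aortas, and ranged from 101 to 117 over all arrays. Itga3, another laminin receptor chain, ranged from 291 to 352 in VitE, from 228 to 287 in ApoE-/- and from 297 to 433 in B6 aortas, and its log2 fold change was -0.49 in ApoE-/- against B6 aortas (adjusted p = 0.086). Itga2 and Itgb6 were dim on all arrays and not tested, with their main probe sets between 12.4 and 32.9.

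Markers of the basal layer of stratified epithelium moved while these chains were not called. Of 10 tested, 1 was higher and 6 lower in ApoE-/- than in B6 aortas, 8 higher in VitE than in ApoE-/- aortas and 8 higher in VitE than in B6 aortas, with sums of 10228 to 10373 in VitE, 5845 to 5969 in ApoE-/- and 7644 to 7702 in B6 aortas. Of 9 oesophageal markers, 9 were lower in ApoE-/- than in B6 aortas and 9 higher in VitE than in ApoE-/- aortas. Of 6 lung alveolar markers, 4 were lower and 1 higher in ApoE-/- than in B6 aortas, and 5 were lower in VitE than in ApoE-/- aortas. Among the hemidesmosome partners of Itga6 and Itgb4, Col17a1 had 147 and 141 in VitE, 54.4 and 51.0 in ApoE-/- and 90.6 and 68.7 in B6 aortas. Its log2 fold changes were -0.58 in ApoE-/- against B6 (adjusted p = 0.041) and 1.45 in VitE against ApoE-/- aortas (adjusted p = 0.0032). Col17a1 reached the intensity limit for testing in VitE aortas alone, which favours a higher call in VitE, and the first difference lies between groups under this limit. Plec, the linker to keratin and other filaments, had log2 fold changes of -0.63 and 0.29, both called, and Dst had -0.12 (adjusted p = 0.15) and -0.32 (adjusted p = 0.014), in the same comparisons. The part of these tissues in the levels of Itga3, Itga6, Itgb4 and Lama5 was not tested.

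Laminin chains of the wall also went different ways. Of 6 tested, 2 were higher (Lamc1 and Lama5) and 1 lower (Lamb1) in ApoE-/- than in B6 aortas, 1 was lower (Lama4) in VitE than in ApoE-/- aortas, and 1 was higher (Lamc1) and 2 lower (Lamb1 and Lama4) in VitE than in B6 aortas. Their medians were 0.05, -0.31 and -0.26 on the log2 scale. The beta chain Lamb1 and the gamma chain Lamc1, which join in the same trimers, moved in opposite directions against B6. The single call in VitE against ApoE-/- aortas was lost without either ApoE-/- or either B6 array, and 2 were called there without the second VitE array.

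Lamb1 had 517 and 443 in VitE aortas, 391 and 435 in ApoE-/- aortas, and 888 and 819 in B6 aortas. Both B6 arrays lay far above all 4 ApoE-deficient arrays. It was 2.07-fold lower in ApoE-/- (log2 fold change -1.05, SE 0.10, adjusted p = 0.00025) and 1.78-fold lower in VitE than in B6 (log2 fold change -0.83, adjusted p = 0.00079). A second probe set of Lamb1, with overlapping groups, gave -0.08 (adjusted p = 0.84) and 0.17 (adjusted p = 0.67). Lamc1 had 332 and 371 in VitE aortas, 392 and 373 in ApoE-/- aortas, and 227 and 210.3 in B6 aortas. Both ApoE-deficient groups lay above B6, by 1.75-fold in ApoE-/- (log2 fold change 0.81, SE 0.10, adjusted p = 0.00076) and 1.61-fold in VitE aortas (log2 fold change 0.68, adjusted p = 0.0017). VitE and ApoE-/- aortas differed by 0.22 for Lamb1 (95% interval -0.02 to 0.45) and by -0.12 for Lamc1 (95% interval -0.36 to 0.11), and neither was called.

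Lama4, the alpha chain of endothelial and smooth muscle basement membranes, ranged from 435 to 516 in VitE, from 622 to 637 in ApoE-/- and from 624 to 649 in B6 aortas. Its level was 1.33-fold lower in VitE than in ApoE-/- aortas (log2 fold change -0.41, SE 0.09, adjusted p = 0.027) and 1.34-fold lower in VitE than in B6 aortas (adjusted p = 0.0095). The first call was lost without any 1 of the ApoE-/- and B6 arrays (adjusted p from 0.063 to 0.13), and the second without the first B6 array (adjusted p = 0.0696). Lama5, the other endothelial alpha chain, which lung and other epithelia also use, ranged from 167 to 169.5 in VitE, from 208 to 239 in ApoE-/- and from 154 to 160.0 in B6 aortas. Its level was 1.42-fold higher in ApoE-/- than in B6 aortas (adjusted p = 0.014), a call that was lost without the second ApoE-/- array (adjusted p = 0.10) or either B6 array (adjusted p = 0.0798 and 0.061), and its log2 fold change in VitE against ApoE-/- aortas was -0.41 (adjusted p = 0.063).

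Lama2, the alpha chain of muscle basement membranes, and Lamb2 were not called. Lamb2 ranged from 288 to 338 in VitE, from 366 to 389 in ApoE-/- and from 344 to 382 in B6 aortas. The replicates of Lama2 in VitE aortas lay far apart, at 109 and 213, and the interval of its log2 fold change against ApoE-/- aortas ran from -1.02 to 0.31. The epithelial chains Lama3 and Lamb3 were between 38.8 and 101 on all arrays. Lamc3 had 62.0 and 55.3 in VitE, 45.4 and 57.8 in ApoE-/- and 40.3 and 26.0 in B6 aortas, and Lama1 was under 5 on all arrays. None of these 4 was tested.

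Partners of laminins in the basement membrane and at the cell surface were measured as a list of 19, of which 14 were tested. In ApoE-/- against B6 aortas 1 was higher and 2 lower, in VitE against ApoE-/- aortas 3 lower, and in VitE against B6 aortas 5 lower. Utrn, which links the laminin receptor dystroglycan to actin, was lower by 0.60 in ApoE-/- and by 0.63 in VitE than in B6 aortas. Ntn4, a netrin that binds laminin gamma chains, was lower by 0.45 and 0.71 in the same comparisons. VitE aortas were lower than ApoE-/- aortas in Col4a5, a collagen IV chain (log2 fold change -0.74, adjusted p = 0.042), Sgce, a sarcoglycan (log2 fold change -0.47, adjusted p = 0.013), and Dag1, the gene of dystroglycan (log2 fold change -0.37, adjusted p = 0.0092).

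Matrix ligands of wall integrins gave 2 higher and 2 lower of 8 tested in ApoE-/- against B6 aortas, 1 lower in VitE against ApoE-/- aortas, and 1 higher and 4 lower in VitE against B6 aortas. Vtn, the gene of vitronectin, had 240.1 and 207 in VitE, 207 and 201 in ApoE-/- and 530.3 and 552 in B6 aortas, with log2 fold changes of -1.41 in ApoE-/- (adjusted p = 7.5e-05) and -1.28 in VitE aortas (adjusted p = 0.00013). Tnc, tenascin-C, a ligand of Itga9 with Itgb1, rose by 0.65 in ApoE-/- (adjusted p = 0.017) and by 0.93 in VitE aortas (adjusted p = 0.0040). Fn1, the gene of fibronectin, was lower by 0.34 in VitE than in ApoE-/- aortas (adjusted p = 0.011).

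Of the adaptors that couple integrins to actin, 21 of 23 were tested. In ApoE-/- against B6 aortas 4 were higher and 7 lower, in VitE against ApoE-/- aortas 1 was higher and 2 lower, and in VitE against B6 aortas 3 were higher and 8 lower. Fermt3, the kindlin of blood cells, had 2089 and 2204 in VitE, 1526 and 1460 in ApoE-/- and 1491 and 1500 in B6 aortas. It was higher by 0.52 in VitE than in ApoE-/- aortas (adjusted p = 0.0023), while its log2 fold change in ApoE-/- against B6 aortas was -0.0028 (adjusted p = 0.98). Ptk2b, a focal adhesion kinase of leukocytes and other cells, rose by 0.83 in ApoE-/- and by 0.87 in VitE aortas against B6. Tns1, a tensin that tethers integrin tails to actin, was lower by 0.66 in ApoE-/- and by 0.72 in VitE than in B6 aortas. Cd151, a tetraspanin that binds laminin-binding integrins, was higher by 0.24 in ApoE-/- than in B6 aortas (adjusted p = 0.044) and lower by 0.47 in VitE than in ApoE-/- aortas (adjusted p = 0.0096).

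The p-values rest on 2 arrays per group, and comparisons that share a group are not independent of each other. Leaving out the first or the second ApoE-/- array left 0 of the 35 probe sets called between VitE and ApoE-/- aortas, where 4.84% and 4.56% of all probe sets tested were then called.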

How the data were processed

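Whole aortas were measured on Affymetrix MG430 2.0 arrays. The signal intensities are linear values, 1 per probe set, which the authors obtained with GCOS, scaled for each array and deposited in this form. The mean signal intensity of an array was between 305 and 319, and precision is limited by having 2 arrays per group. Symbols came from the platform annotation and were matched to RefSeq (GRCm38.p6) for names only: of 45101 probe sets, 64 were controls of the array, 34945 had 1 symbol, 932 several and 9160 none, and no probe set of the family had several.

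Values under 20 were set to 20 and log2-transformed. The 17909 non-control probe sets with a group mean of at least 100 in at least 1 group entered 1 fit of the 6 arrays (limma 3.58.1, R 4.3.3), with a mean for each group and a variance trend over intensity. There were 3 residual degrees of freedom and 4.46 from the prior. The procedure was tested on simulated data. P-values were adjusted over these probe sets by Benjamini-Hochberg and called under 0.05. Of the probe sets tested, 2 of the 35 of the family and 1478 of all passed the filter through 1 group only. Folds are from the log2 fit. The labels state that the arrays of a group are biological replicates. An exact permutation test of 2 against 2 arrays cannot give a two-sided p under 0.333, so none was used.

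A gene is represented by its probe set with the highest mean signal intensity. Every gene of the family is named. Values of every array are given where it was called with at least a 1.5-fold difference and no overlap in at least 1 comparison, and other tested probe sets where their direction or call differs from that of the main one. Of pathway and marker lists, the 2 genes with the highest signal intensity and the 2 with the largest difference could be named, and others named from them, such as Rag1 as a defining thymocyte gene, illustrate a call. The members and lists were chosen with earlier results of these data known. Schwann cell markers gave 1 higher and 2 lower of 4 in ApoE-/- against B6, 0 and 2 in VitE against ApoE-/-, and 1 and 2 in VitE against B6 aortas. As alternatives, arrays were quantile normalized or median centred, the floor was set to 50 or dropped, the filter was dropped or applied to the mean over all arrays, the variance trend was left out, only the compared groups were fitted, replicate numbers were used as a block, each array was left out in turn, probe sets of a gene were chosen otherwise, and the methods' t-test was run (p of at most 0.01 and at least 2-fold).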

Additional observations from a re-analysis of the deposited data

How the results depend on the processing

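Counts of calls in the 3 comparisons are given here in the order ApoE-/- against B6, VitE against ApoE-/-, and VitE against B6 aortas. They were 16, 7 and 16 for probe sets of the family, 5, 0 and 6 for leukocyte integrin genes, 6, 3 and 4 for wall and epithelial integrin genes and 3, 1 and 3 for laminin genes. Without the filter on low values, probe sets gave 4 in the second and 9 in the third comparison, leukocyte genes 3 in the first and 3 in the third, wall and epithelial genes 2 in the first and 2 in the third, and laminin genes 0 in the second. More probe sets were then tested. A fit of only the compared groups, with fewer arrays for the spread, gave 3 probe sets and 0 laminin genes in the second comparison. Quantile normalization and median centring each gave 2 laminin genes there. Moderation without the intensity trend gave 3 wall and epithelial genes in the first comparison. With 1 probe set per gene the family had 4 calls in the second comparison, and with all probe sets the leukocyte genes had 1 and the wall and epithelial genes 5 in the second and 7 in the third. The methods' t-test gave 1 probe set and 1 laminin gene in the first comparison, both Lamb1, on the log2 and on the linear scale, and 0 in every other count. On the log2 scale this t-test called 4.41%, 1.03% and 3.27% of all probe sets tested in the 3 comparisons. After Benjamini-Hochberg it gave 1 probe set and 1 leukocyte gene in the first comparison and 0 otherwise on the log2 scale, and on the linear scale 2 probe sets, 1 leukocyte gene and 1 laminin gene in the first, 1 probe set in the third and 0 otherwise. Where no cause is named it was not tested. Leaving out each array in turn gave 10 to 18, 0 to 8 and 12 to 18 probe sets, 4 to 5, 0 to 1 and 4 to 5 leukocyte genes, 2 to 7, 0 to 4 and 2 to 4 wall and epithelial genes, and 2 to 3, 0 to 2 and 2 to 4 laminin genes. The lone array of a group is then assumed to vary like the others. Without any 1 of the ApoE-/- and B6 arrays the share called over all probe sets tested also fell, in all 3 comparisons. In the first comparison the family fell to 10 without the second ApoE-/- or the second B6 array, and the wall and epithelial genes to 2 without either ApoE-/- or the second B6 array. In the second, the family, the wall and epithelial and the laminin genes had 0 calls without either ApoE-/- array, the family had 3 and the laminin genes 0 without either B6 array, the leukocyte genes had 1 without the first and the laminin genes 2 without the second VitE array. In the third, the wall and epithelial genes had 2 without the second B6 array. Median centring moved the median log2 fold change of all probe sets tested from 0.03 to -0.04, from 0.0035 to -0.08 and from 0.02 to -0.13, and the share of higher among their calls from 53.1% to 43.2%, from 55.0% to 33.7% and from 53.3% to 31.4%. The replicate numbers share only a number, since the correlation of the deviations of arrays with the same number was 0.054, 0.055 and -0.098 between the groups, and the replicate block gave 14, 5 and 16 probe sets, 5, 0 and 5 leukocyte genes, 4, 2 and 4 wall and epithelial genes and 3, 1 and 3 laminin genes. The direction of a change was checked for calls of genes with values on every array. Another probe set turned the log2 fold change round for Itga4 in the first comparison (-0.50) and for Lamb1 in the third (0.17). Probe sets of Itgb5, Itgb1 and Itga6 with an opposite direction are given above and lie outside this check. Under the other alternatives run the direction of the calls checked was kept.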
